A study of Mus musculus with 28 samples.

Results

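Malat1, Neat1, Rn7sk, Rpph1, Rmrp and Kcnq1ot1 are abundant noncoding RNAs that act in the nucleus or in RNA processing. They were taken by symbol from the count table, which gave 6 of the 50600 genes in it. Stromal and luminal cells had been sorted from mammary glands of 7 mice, and each mouse gave 4 libraries, so 28 libraries were available. The study asked how descendants of Pdgfra-expressing stromal cells relate to the mammary epithelium and how ovarian hormones act on them. RNA from all fractions was sequenced as total RNA after ribosomal RNA depletion, so that RNAs without a poly(A) tail, such as Rn7sk, Rpph1 and Rmrp, can be counted.

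All mice were adult females of the genotype PdgfrαCre R26mTmG on the C57BL/6 background, aged 10 to 12 weeks according to the methods. The Cre is driven by the Pdgfra gene. GFP therefore marks cells that expressed it at any time, together with their progeny, and says nothing about expression at the time of sorting. Cells without recombination carry tdTomato. Stromal cells were CD49f− EpCAM− and luminal cells CD49flo EpCAM+, with endothelial and blood cells removed by CD31, CD45 and Ter119. The 8 groups were GFP+ luminal cells, tdTomato+ luminal cells, GFP+ stroma and tdTomato+ stroma, each from 4 untreated mice and from 3 mice given estrogen plus progesterone (E+P). The methods describe E+P pellets of 0.14 mg estradiol and 14 mg progesterone over 14 days in a sentence on wild-type females, and the dose in the reporter mice is taken to be the same only on that ground. RNA integrity numbers ran from 1 to 10 and fragmentation from 0 to 4 minutes, and neither is given for single libraries.

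The deposited values are read counts per gene, and library totals ranged from 8623383 to 24583803. A share below is the percentage of all counts of a library. Counting error is small beside the spread between mice. The 95% Wilson interval of a single library reaches at most 0.482% of the share to either side for Malat1 and 3.28% for Rmrp. These intervals cover counting error only, because the reads carry no molecular identifiers. The sorted fractions carried their defining markers: the 9 luminal markers summed to between 4908 and 7479 counts scaled to a library of 1e6 counts (CPM) in the 14 luminal libraries and to at most 486 CPM in stroma. The 6 fibroblast markers summed to between 30471 and 60012 CPM in GFP+ stroma but to only 1760 to 6408 CPM in tdTomato+ stroma. In tdTomato+ stroma, 8 of 8 pericyte and smooth muscle markers and 9 of 9 skeletal muscle markers were detected in each library. The former summed to means of 7838 CPM untreated and 6856 CPM after E+P, against 728 and 779 CPM in GFP+ stroma. The latter summed to means of 7473 and 13570 CPM, against 11.6 and 12.6 CPM in GFP+ stroma. By these sums, the label stroma in the tdTomato+ fraction covers cells other than fibroblasts.

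These RNAs have well described roles. Malat1 is retained in nuclear speckles, bodies rich in splicing factors, and Neat1 is the scaffold on which paraspeckles assemble. Neat1 knockout mice are known for impaired development and lactation of the mammary gland. Rn7sk holds the elongation kinase P-TEFb in an inactive particle, Rpph1 is the catalytic RNA of RNase P, which trims the 5′ ends of transfer RNA precursors, and Rmrp is the RNA of the related RNase MRP, which acts on ribosomal RNA precursors. Kcnq1ot1 is transcribed from the paternal chromosome, antisense to Kcnq1, and silences neighbouring imprinted genes in cis.

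In GRCm38, with the gene models of GENCODE M21, the 6 genes lie on the minus strand. Malat1 (chr19:5795690-5802672) and Neat1 (chr19:5824708-5845478) are neighbours, annotated as long intergenic noncoding RNAs. Rn7sk lies at chr9:78175303-78175633, Rpph1 at chr14:50807449-50807767 and Rmrp at chr4:43492788-43493058, each a gene of 1 exon. Kcnq1ot1 (chr7:143203458-143296549) is an unspliced RNA of 93092 bases annotated as antisense, and it shares 121 exon bases with Kcnq1 on the other strand. Counts per gene do not separate the short and the long isoform of Neat1. The strand setting of the deposited counts is not given in the sources used here. Counts on the opposite strand were low beside those of the noncoding RNAs: Ccdc107, whose exon overlaps Rmrp, had 4336 counts over all libraries, 1.37% of those of Rmrp, and Kcnq1 had 644, 0.268% of those of Kcnq1ot1. Ccnb1ip1, whose exons share 233 bases with Rpph1 on the same strand, had 0 counts, against 2541672 for Rpph1. Near-identical copies of Rn7sk in 5 other genes had 8464 counts together, 0.313% of the 2700366 counts of Rn7sk, and reads that fit several copies may be missing from all of them.

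The 6 RNAs together took a mean of 4.41% ± 1.55 of the counts (SD, n = 28 libraries). The sum was highest in untreated tdTomato+ stroma, at 6.87% ± 2.38 (SD, n = 4), and lowest in GFP+ luminal cells after E+P, at 2.63% ± 0.362 (SD, n = 3). It was 5.15% ± 0.383 in tdTomato+ luminal cells after E+P, 4.91% ± 0.691 in untreated tdTomato+ luminal cells and 4.59% ± 0.434 in tdTomato+ stroma after E+P. It was 3.72% ± 0.377 in untreated GFP+ luminal cells, 3.67% ± 0.412 in GFP+ stroma after E+P and 3.37% ± 0.458 in untreated GFP+ stroma. Untreated tdTomato+ stroma varied most between mice, from 4.02% to 9.32%, a range that takes in the means of 3 of the other groups.

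Levels of different genes can be set side by side only per length. Over the 28 libraries, the mean level was 18519 CPM per kilobase for Rpph1, 18128 for Rn7sk, 4155 for Malat1, 2509 for Rmrp, 96.7 for Neat1 and 5.75 for Kcnq1ot1. Neat1 was the fifth and Kcnq1ot1 the sixth of these levels in 28 of 28 libraries. The medians of Rpph1 (16946) and Rn7sk (16929) were nearly equal. Rn7sk came first and Rpph1 next in most libraries, with Malat1 before Rmrp in 15 of these and after it in 4, and Rpph1 came first in the others, with Malat1 before Rmrp in 5 and after it in 4. The 8 libraries with more Rmrp than Malat1 per kilobase were the 3 of GFP+ luminal cells and the 3 of tdTomato+ stroma after E+P, untreated GFP+ luminal cells of mouse 4 and untreated GFP+ stroma of mouse 2.

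**Figure D1:**
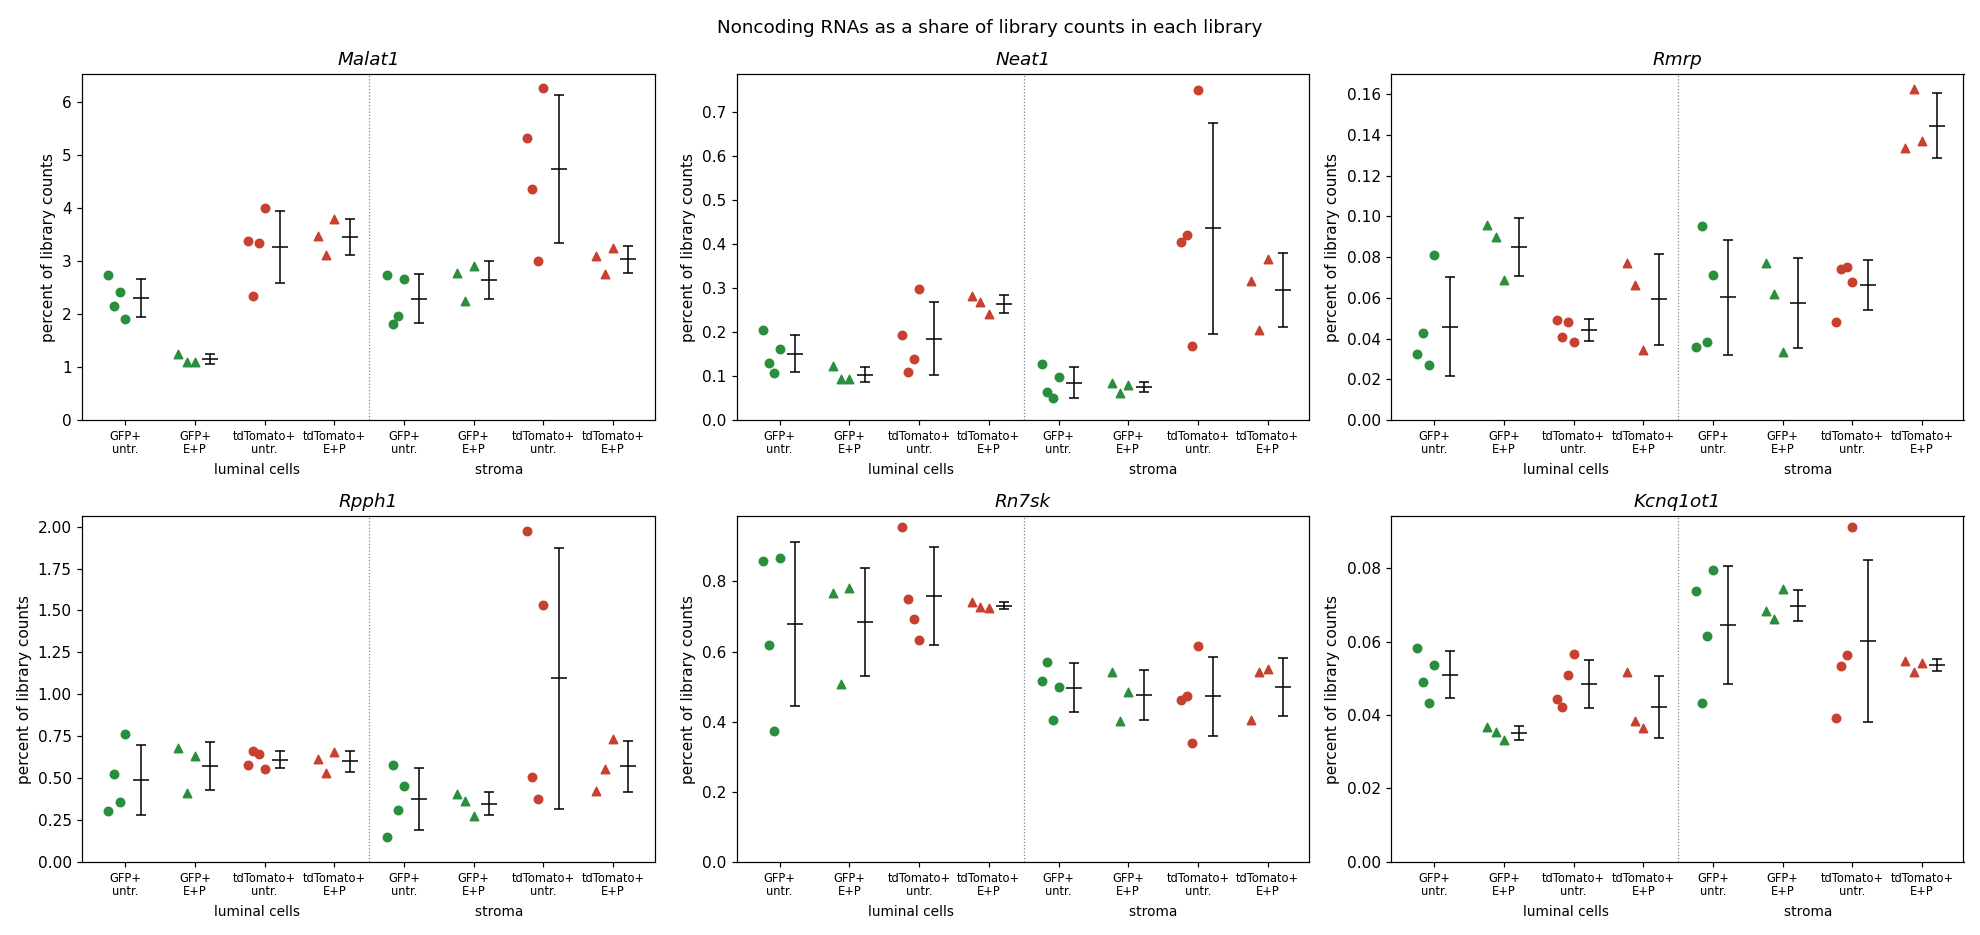
Share of library counts (percent, linear axes from 0) of each of the 6 noncoding RNAs in each library, by lineage, reporter (green, GFP+; red, tdTomato+) and treatment (circles, untreated; triangles, E+P), with the mean and SD of each group beside the points. Malat1 was lowest in the 3 libraries of GFP+ luminal cells after E+P, Neat1 was low in GFP+ stroma, and Rmrp was highest in tdTomato+ stroma after E+P.

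Malat1 had the following shares. In luminal cells of untreated mice 1 to 4, Malat1 took 2.73%, 2.15%, 2.42% and 1.91% of the counts in GFP+ cells and 3.38%, 2.35%, 3.35% and 4.00% in tdTomato+ cells. After E+P the Malat1 shares were 1.25%, 1.10% and 1.10% in GFP+ and 3.47%, 3.10% and 3.79% in tdTomato+ luminal cells. The 3 GFP+ luminal libraries after E+P lay below the other 25 libraries. In untreated stroma, Malat1 took 2.73%, 1.81%, 1.97% and 2.65% in GFP+ cells and 5.32%, 4.36%, 3.00% and 6.27% in tdTomato+ cells. After E+P the stromal values were 2.78%, 2.24% and 2.91% in GFP+ and 3.09%, 2.76% and 3.25% in tdTomato+ cells. In each mouse the tdTomato+ fraction held more Malat1 than the GFP+ fraction of the same lineage, in stroma and in luminal cells. Ordered by their means, the groups ran from untreated tdTomato+ stroma (4.74% ± 1.40) through tdTomato+ luminal cells after E+P (3.45% ± 0.345), untreated tdTomato+ luminal cells (3.27% ± 0.682), tdTomato+ stroma after E+P (3.03% ± 0.251), GFP+ stroma after E+P (2.64% ± 0.355), untreated GFP+ luminal cells (2.30% ± 0.352) and untreated GFP+ stroma (2.29% ± 0.467) to GFP+ luminal cells after E+P (1.15% ± 0.0863). Neighbours in this order overlapped, except that the last group lay apart from the next.

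Neat1, transcribed beside Malat1, had its widest range in stroma. Untreated GFP+ stroma held 0.128%, 0.0628%, 0.0494% and 0.0971% Neat1, and untreated tdTomato+ stroma 0.403%, 0.420%, 0.168% and 0.750%. After E+P the stromal shares of Neat1 were 0.0835%, 0.0614% and 0.0788% in GFP+ and 0.315%, 0.203% and 0.367% in tdTomato+ cells. The highest GFP+ value thus lay below the lowest tdTomato+ value of stroma. In untreated luminal cells Neat1 took 0.204%, 0.129%, 0.107% and 0.160% in GFP+ and 0.193%, 0.110%, 0.138% and 0.298% in tdTomato+ cells. After E+P it took 0.122%, 0.0935% and 0.0926% in GFP+ and 0.282%, 0.267% and 0.241% in tdTomato+ luminal cells. The luminal fractions overlapped in untreated mice, where mice 1 and 2 had slightly more Neat1 in GFP+ cells, and lay apart after E+P. By group mean, Neat1 fell in order from untreated and then E+P-treated tdTomato+ stroma, through tdTomato+ luminal cells after E+P and untreated, and GFP+ luminal cells untreated and after E+P, to GFP+ stroma untreated and after E+P. Each group overlapped the next in this order.

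Rn7sk was the most even of the 6 between treatments, with log2 changes after E+P from −0.07 to 0.17. Its group means lay between 0.679% and 0.758% in the 4 luminal groups and between 0.472% and 0.499% in the 4 stromal groups. The lowest Rn7sk share was 0.338%, in untreated tdTomato+ stroma of mouse 3, and the highest 0.956%, in untreated tdTomato+ luminal cells of mouse 1. Luminal groups came before stromal groups in the order of means, and every pair of neighbours overlapped.

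Rpph1 was most uneven in untreated tdTomato+ stroma. In untreated tdTomato+ stroma it took 1.97% and 1.53% of the counts in mice 1 and 4 but 0.505% and 0.376% in mice 2 and 3. The other 7 groups had means from 0.348% in GFP+ stroma after E+P to 0.610% in untreated tdTomato+ luminal cells, and all neighbours in the order overlapped. Untreated GFP+ stroma ran from 0.150% to 0.579% and untreated GFP+ luminal cells from 0.303% to 0.765%. The mice with high Rpph1 in that fraction also had the highest Neat1 (mouse 4) and Malat1 (mice 1 and 4) of the group.

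Rmrp, the sister RNA of Rpph1, behaved otherwise. The tdTomato+ stroma held 0.0483%, 0.0741%, 0.0751% and 0.0678% Rmrp in untreated mice and 0.133%, 0.163% and 0.137% after E+P, and these 3 libraries were higher than the other 25. GFP+ luminal cells held 0.0323%, 0.0429%, 0.0271% and 0.0808% in untreated mice and 0.0960%, 0.0898% and 0.0689% after E+P, which overlapped through untreated mouse 4. The tdTomato+ luminal cells had group means of 0.0441% untreated and 0.0593% after E+P, and GFP+ stroma of 0.0602% and 0.0574%. Apart from tdTomato+ stroma after E+P, neighbours in the order of Rmrp means overlapped.

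Kcnq1ot1 had its highest group means in GFP+ stroma, with shares of 0.0738%, 0.0432%, 0.0615% and 0.0795% in untreated mice and 0.0684%, 0.0663% and 0.0744% after E+P. GFP+ luminal cells held 0.0583%, 0.0489%, 0.0434% and 0.0535% untreated and 0.0369%, 0.0354% and 0.0331% after E+P. The 3 treated GFP+ luminal libraries lay below the 4 untreated ones. The mean of tdTomato+ stroma was 0.0601% untreated and 0.0536% after E+P, and that of tdTomato+ luminal cells 0.0485% and 0.0422%. Neighbouring group means of Kcnq1ot1 did not differ beyond the spread between mice.

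To compare groups, counts were scaled by the TMM factors of edgeR, which correct library totals for genes that dominate a group, and tested gene by gene with its quasi-likelihood F-test. A gene was called at a Benjamini-Hochberg adjusted p under 0.01 over all genes tested, the threshold of the study, and each of the 6 RNAs passed the filter on low counts. The mouse was not in this model, which thus treats the libraries of a mouse as independent. The exact sign-flip tests and the fits with the mouse as a block use the pairing. In bulk samples such as these, fewer cells of a type and less RNA per cell cannot be told apart.

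**Figure D2:**
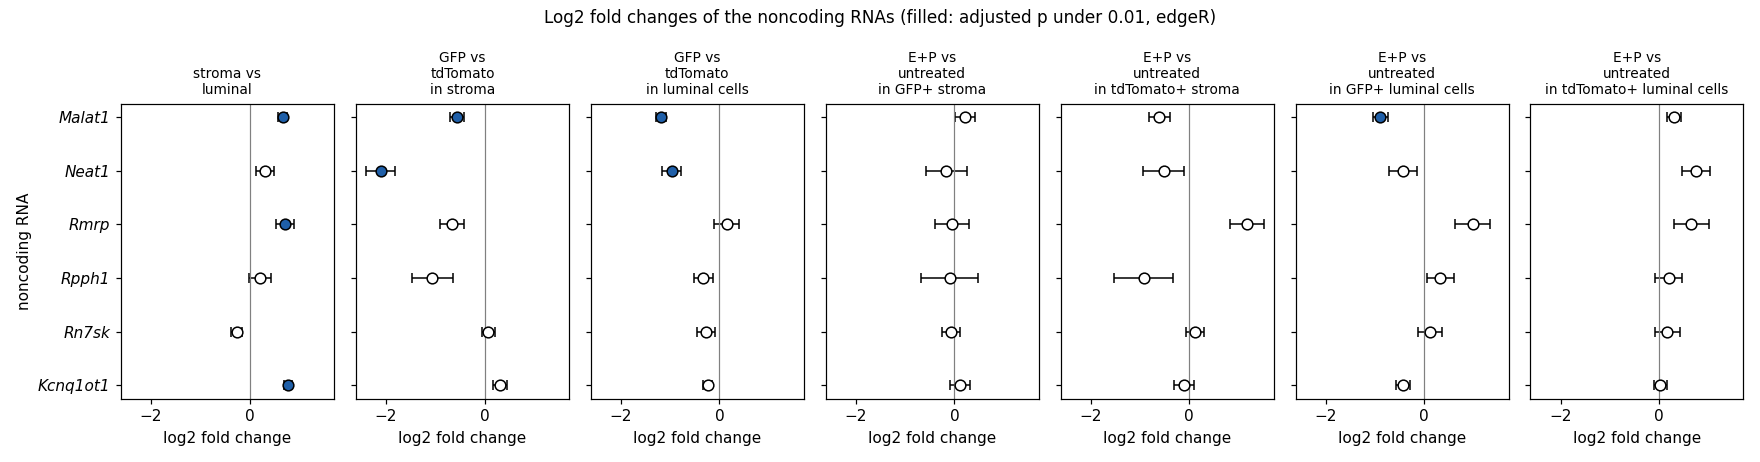
Log2 fold changes of the 6 noncoding RNAs (points) from edgeR in 7 comparisons, with standard errors derived from its F statistic (bars). Filled points passed an adjusted p of 0.01. Malat1 and Neat1 lay below 0 in both GFP+ against tdTomato+ comparisons, and Malat1 is the filled point among the 4 E+P comparisons.

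The first comparison was between stroma and luminal cells, averaged over reporter and treatment. Kcnq1ot1 was 1.72-fold higher in stroma (log2 0.78 ± 0.09 SE, edgeR adjusted p = 2.3e-08), Malat1 1.60-fold (log2 0.67 ± 0.09 SE, edgeR adjusted p = 2.5e-07) and Rmrp 1.64-fold (log2 0.72 ± 0.19 SE, edgeR adjusted p = 0.0015). Averaged over the reporter fractions, each of these was higher in stroma in 7 of 7 mice. This gives the smallest p that an exact two-sided sign-flip test over 7 mice can reach, 0.0156. By group mean of TMM-scaled CPM, Malat1 was lower in stroma in tdTomato+ cells after E+P (33105 against 34894 in luminal cells). Rmrp was lower in stroma in GFP+ cells after E+P (661 against 768). The other group means of both, and all those of Kcnq1ot1, were higher in stroma. Averaged in the same way, Rn7sk was lower in stroma in 7 of 7 mice (exact sign-flip p = 0.0156). Its log2 difference of −0.26 ± 0.11 SE missed the threshold of edgeR (adjusted p = 0.038). In untreated GFP+ cells its TMM-scaled means were about equal, 5706 CPM in stroma and 5704 CPM in luminal cells, and its other group means were lower in stroma. Neat1 (log2 0.31 ± 0.18 SE) and Rpph1 (0.21 ± 0.23 SE) did not pass either. Thus 3 of the 6 RNAs were called, all higher in stroma, where 63.5% of the 19569 genes tested were called. Their number is about the background, and a difference from it was not tested. Without TMM, with library size alone, the median of all genes shifted by −0.29 and 38.8% rather than 51.9% of the calls were higher in stroma. Malat1 then had a log2 difference of 0.38, Kcnq1ot1 of 0.49, Rmrp lost its call (0.43, edgeR adjusted p = 0.036), Rn7sk gained one (−0.55, edgeR adjusted p = 0.00011) and Rpph1 changed sign (−0.083). The call of Rmrp was also lost without the low-count filter and without untreated mouse 2 or E+P mouse 2 (edgeR adjusted p from 0.0101 to 0.0105), and Rn7sk was called without untreated mouse 3 (edgeR adjusted p = 0.0088).

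Values of partner proteins, here and below, are RNA levels of their genes, as the libraries measure RNA only. Genes of protein partners were called no more often than genes in general between the lineages. The shares called were 58.3% of paraspeckle, 41.7% of speckle, 60.0% of 7SK and P-TEFb and 18.2% of RNase P and RNase MRP proteins, beside 63.5% of all genes. Of 12 paraspeckle proteins, 2 were higher and 5 lower in stroma, among them the core proteins Nono (log2 −0.91) and Pspc1 (log2 0.50), and Smarca4, a chromatin remodeller (−0.75). Of 12 nuclear speckle proteins, 4 were higher and 1 lower, with Son (log2 0.59), a scaffold of speckles, leading, before the splicing factors Srsf7 (0.29) and Sf3b1 (0.26). Of 10 proteins of the 7SK particle and P-TEFb, 3 were higher and 3 lower, with the inhibitor Hexim1 (log2 0.56) and the cyclin Ccnt1 (0.54) up and Hnrnpa1 (−0.62) down. Of 11 proteins of RNase P and RNase MRP, Pop1 was higher (log2 1.08) and Rpp21 lower (−0.80), and 9 were not called. In the Kcnq1 imprinted domain 4 of 9 genes tested were higher and 3 lower. The growth inhibitor Cdkn1c was far higher in stroma (log2 4.68), and Phlda2 (−4.57) and the transporter gene Slc22a18 (−3.89) far lower, while Kcnq1ot1 itself differed 1.72-fold. Of 22 genes for RNA polymerase III and small nuclear RNA transcription, 4 were higher and 7 lower, with Snapc1 at log2 1.48, Polr3k at −1.32 and Polr3b at −0.73. Among 24 other noncoding RNAs tested, 11 were higher and 4 lower, with the imprinted Meg3 (log2 9.32) and Airn (1.45) higher and Firre (−1.28) lower. Of 23 mitochondrial genes, 2 were higher and 6 lower, with mt-Nd6 at log2 0.68, mt-Nd2 at 0.46 and mt-Rnr2 at −0.44.

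The GFP+ and tdTomato+ fractions of stroma ask how cells with a Pdgfra history differ from the remaining stromal cells of the same mouse. Neat1 showed the largest difference among the 6: it was 4.32-fold lower in GFP+ stroma (log2 −2.11 ± 0.30 SE, edgeR adjusted p = 6.8e-05). Malat1 was 1.48-fold lower (log2 −0.56 ± 0.15 SE, edgeR adjusted p = 0.0040). Both were lower in 7 of 7 mice (exact sign-flip p = 0.0156, the smallest possible). The within-mouse log2 differences ran from −2.83 to −1.64 for Neat1. Those of Malat1 split by treatment, from −1.12 to −0.50 in untreated mice and from −0.21 to −0.10 after E+P, so its average difference comes mostly from untreated mice. Rpph1 (log2 −1.06 ± 0.42 SE, edgeR adjusted p = 0.049) was lower in 6 of 7 mice and Rmrp (−0.66 ± 0.25 SE, adjusted p = 0.038) in 5 of 7, while Kcnq1ot1 (0.31 ± 0.14 SE, adjusted p = 0.080) was higher in 5 of 7. Rn7sk was nearly equal (log2 0.07 ± 0.13 SE). Thus 2 of the 6 passed, both lower, where 42% of the 17783 genes tested were called, so their number is about the background while the fold of Neat1 is large.

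With the mouse as a block, which pairs the fractions of an animal, Rmrp was called as well (log2 −0.76, edgeR adjusted p = 0.0064), as it was by DESeq2 (adjusted p = 0.0048) and limma-voom (adjusted p = 0.0059), and the call of Malat1 was lost without E+P mouse 1, 2 or 3 (edgeR adjusted p from 0.019 to 0.024). Without the low-count filter edgeR also called Rpph1 (log2 −1.03, adjusted p = 2.3e-16) and Rmrp (−0.63, adjusted p = 6.7e-07). With the filter, Rpph1 was not called with or without its highest libraries: without the tdTomato+ untreated library of mouse 1, an alternative chosen after seeing the data, its log2 difference was −0.80 (edgeR adjusted p = 0.10), and without that of mouse 4 it was −0.99 (adjusted p = 0.079), where Kcnq1ot1 was called (log2 0.43, adjusted p = 0.0052).

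Cell type markers moved with this comparison. Skeletal muscle markers summed to 10752, 12459, 4271 and 2409 CPM in tdTomato+ stroma of untreated mice 1 to 4 and to 11896, 22130 and 6684 CPM after E+P, with Acta1 the most abundant on average, against 7.65 to 16.5 CPM in GFP+ stroma, where between 5 and 8 of the 9 were detected and Tnnt3 led. Pericyte and smooth muscle markers summed to 9647, 8844, 6513 and 6348 CPM in untreated tdTomato+ stroma and to 7338, 6469 and 6762 CPM after E+P, led by Myh11 or Rgs5, against 654 to 840 CPM in GFP+ stroma, led by Pdgfrb. The 5 endothelial markers, led by Tek or Cdh5, summed to 271, 235, 188 and 200 CPM in untreated GFP+ stroma and to 137, 140 and 156 CPM after E+P, against 137, 75.1, 63.7 and 105 CPM in untreated tdTomato+ stroma and 99.0, 246 and 209 CPM after E+P. The mitochondrial share was 4.67% ± 0.247 in untreated GFP+ stroma and 9.24% ± 1.86 in untreated tdTomato+ stroma (SD, n = 4 each). The part of these differences in the levels of Neat1 and Malat1 was not tested. Within tdTomato+ stroma, untreated mouse 4 had the highest Neat1 and Malat1 shares and the lowest skeletal muscle and pericyte and smooth muscle sums. It also had the lowest mitochondrial share of the fraction, 6.70%. Untreated mouse 3, with sums of 4271 and 6513 CPM in these lists, had the lowest Neat1 share of the fraction, 0.168%.

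RNA of protein partners differed by list in GFP+ stroma. By edgeR, 66.7% of paraspeckle, 66.7% of speckle, 70.0% of 7SK and P-TEFb and 27.3% of RNase P and RNase MRP proteins were called. These stand beside 42% of all genes, and no enrichment was tested. Of 12 paraspeckle proteins 8 were lower and 0 higher in edgeR, with a median log2 difference of −0.39 against −0.01 over all genes tested. Hnrnph3 (log2 −0.95) and Pspc1 (−0.69), both RNA-binding proteins, were among them. Of 12 nuclear speckle proteins 8 were lower (median −0.52), led by the splicing factor Srsf3 (log2 −0.87), the helicase Ddx39b (−0.71) and Sf3b1 (−0.53). Of 10 proteins of the 7SK particle and P-TEFb 7 were lower (median −0.71), among them Hnrnpa1 (log2 −0.84) and Ccnt1 (−0.70), although Rn7sk was not. Proteins of RNase P and RNase MRP were mostly uncalled, with 1 of 11 higher and 2 lower. Pop5, a core subunit, was lower (log2 −2.64), with a mean of 3.60 CPM (SD 0.499, n = 4) in GFP+ against 21.6 CPM (SD 6.06, n = 4) in tdTomato+ stroma of untreated mice, Rpp38 was lower (−0.66) and Rpp25 higher (6.13), though Rpp25 reached only 2.04 CPM in untreated GFP+ stroma.

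Of the other lists in stroma, beside 42% of all genes, edgeR called 62.5% of the Kcnq1 domain, 18.2% of RNA polymerase III and small nuclear RNA transcription genes, 43.5% of other noncoding RNAs and 66.7% of mitochondrial genes. In the Kcnq1 domain, 5 of 8 genes tested were higher in GFP+ stroma and 0 lower, with a median log2 difference of 0.87. Cdkn1c had log2 2.84 over both treatments, with means of 73.9 CPM in GFP+ and 21.5 CPM in tdTomato+ stroma of untreated mice and of 140 and 9.20 CPM after E+P, and Cd81 (log2 1.31), a tetraspanin gene, and Osbpl5 (0.63) followed. Of 22 RNA polymerase III and small nuclear RNA transcription genes, Snapc5 was higher (log2 0.81) and 3 were lower, including Snapc1 (−2.06) and the octamer factor Pou2f1 (−0.67). Of 23 other noncoding RNAs 1 was higher and 9 lower, led by the snoRNA hosts Snhg1 (log2 −1.28) and Snhg12 (−1.11) and by Firre (−0.85). Of 21 mitochondrial genes, 14 were lower, with mt-Nd2 at log2 −1.35, mt-Cytb at −1.51 and mt-Nd4 at −1.43.

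In luminal cells, the same contrast concerns epithelial cells with and without a Pdgfra history. Malat1 was 2.28-fold lower in GFP+ cells (log2 −1.19 ± 0.11 SE, edgeR adjusted p = 2.0e-06), and lower in 7 of 7 mice (exact sign-flip p = 0.0156). Neat1 was 1.96-fold lower (log2 −0.97 ± 0.20 SE, edgeR adjusted p = 0.0015), in 5 of 7 mice (exact sign-flip p = 0.0625). Both values average over treatments that differed: by mouse, the log2 difference of Malat1 lay between −1.10 and −0.21 untreated and between −1.92 and −1.63 after E+P, and that of Neat1 between −0.93 and 0.15 untreated and between −1.71 and −1.36 after E+P. The remaining 4 did not pass: Kcnq1ot1 (log2 −0.24 ± 0.10 SE, edgeR adjusted p = 0.051), Rpph1 (−0.33 ± 0.19 SE), Rn7sk (−0.27 ± 0.18 SE) and Rmrp (0.14 ± 0.25 SE). Thus 2 of the 6 were called where 34.7% of 16538 genes were, again a count near the background. Neat1 lost its call without E+P mouse 2 (edgeR adjusted p = 0.016) or 3 (0.013), and leaving out untreated mouse 4 turned the sign of Rmrp (−0.11). With library size alone the median of all genes shifted by 0.14 and 60.7% rather than 45.3% of the calls were higher in GFP+ cells, while both RNAs still passed, with log2 −1.04 and −0.83.

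Markers differed between the luminal fractions as well. The 5 basal markers summed to 41.6, 85.5, 55.8 and 47.9 CPM in untreated and to 131, 132 and 117 CPM in E+P-treated GFP+ luminal cells, with Oxtr the most abundant on average in both. They summed to 10.4, 7.60, 13.0 and 18.3 CPM in untreated and to 62.5, 41.8 and 35.4 CPM in treated tdTomato+ luminal cells, led by Oxtr and by Trp63, and no basal marker was at 0 throughout a group. Of the Schwann and glial list, led by Sox10, the sums reached 228 CPM in GFP+ and lay between 13.4 and 65.4 CPM in tdTomato+ luminal cells, with S100b at 0 in 3 of the 4 luminal groups. In GFP+ luminal cells Sox10 alone had means of 181 CPM untreated and 175 CPM after E+P, of list means of 186 and 178 CPM. The part of these markers in the difference of Malat1 and Neat1 was not tested.

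RNA of protein partners was mostly uncalled here. The shares called were 16.7% of paraspeckle, 25.0% of speckle, 20% of 7SK and P-TEFb and 20% of RNase P and RNase MRP proteins, beside 34.7% of all genes. Of 12 paraspeckle proteins Sfpq was higher (log2 0.48) and Smarca4 lower (−0.40), and of 12 speckle proteins Srsf3 was higher (0.43) and the matrix proteins Srrm1 (−0.32) and Srrm2 (−0.29) lower. Of 10 proteins of the 7SK particle and P-TEFb, Larp7, which binds the 3′ end of Rn7sk, was higher (log2 0.79) and Ccnt2 lower (−0.44). Rpp30 (log2 1.00) and Pop4 (0.60), of RNase P and RNase MRP, were higher among 10 tested. In the Kcnq1 domain 2 of 8 were higher and 3 lower, with Cd81 at log2 1.45, Osbpl5 at −1.56 and Nap1l4, a histone chaperone gene, at −0.47. Of 22 RNA polymerase III and small nuclear RNA transcription genes 1 was higher and 1 lower, the latter Snapc1 (log2 −0.58). Of 22 other noncoding RNAs 6 were higher and 2 lower, with Firre at log2 0.85, Snhg5 at 0.71 and Pvt1 at −1.17, and of 20 mitochondrial genes 3 were lower, with mt-Nd5 at −0.48, mt-Cytb at −0.43 and mt-Nd6 at −0.41.

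Whether the GFP+ and tdTomato+ fractions differed unequally in stroma and luminal cells was tested as an interaction. Averaged over treatments, Malat1 differed less in stroma than in luminal cells, by log2 0.62 ± 0.18 SE (edgeR adjusted p = 0.0067), but this order held in every mouse only after E+P. In mice 1 to 3 given E+P the log2 differences of GFP+ from tdTomato+ cells were −0.10, −0.21 and −0.12 in stroma and −1.63, −1.69 and −1.92 in luminal cells. In untreated mice 1 to 4 the order was the reverse in mice 1, 2 and 4, by little in mouse 4, with −0.96, −1.09, −0.50 and −1.12 against −0.39, −0.21, −0.56 and −1.10. Neat1 differed more in stroma (−1.14 ± 0.37 SE, edgeR adjusted p = 0.014, not called) and Kcnq1ot1 lay at 0.54 ± 0.18 SE (adjusted p = 0.017, not called). Of the 6, 1 was called against 33.2% of 19569 genes. The Malat1 interaction lost its call with DESeq2 size factors (edgeR adjusted p = 0.0101), library size alone (0.085, with a median shift of −0.19 and 37.7% rather than 49.0% of calls positive), without the low-count filter (0.015) and without untreated mouse 4 or any E+P mouse (up to 0.072). With the mouse as a block 3 of the 6 were called, beside 6552 of 19569 genes, adding Neat1 (edgeR adjusted p = 0.00048) and Kcnq1ot1 (adjusted p = 0.0069). Among partners, to be read beside the 33.2% of all genes, 7 of 10 proteins of the 7SK particle and P-TEFb had a negative interaction and 0 a positive one, among them Larp7 (log2 −1.57) and Hnrnpa1 (−1.08), as had 9 of 12 speckle proteins, led by Srsf3 (−1.31). Of 12 paraspeckle proteins 5 were negative and 1 positive, of 11 RNase P and RNase MRP proteins 3 negative, and of 9 Kcnq1 domain genes 3 positive and 1 negative. Of 22 RNA polymerase III genes 2 were negative, of 24 other noncoding RNAs 10 negative and 3 positive, and of 23 mitochondrial genes 12 negative.

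The hormone comparisons ask how each fraction responds to E+P. Untreated and treated libraries came from different mice, 4 and 3, for which an exact permutation test cannot go below 0.0571. In GFP+ luminal cells Malat1 was 1.86-fold lower after E+P (log2 −0.89 ± 0.15 SE, edgeR adjusted p = 0.0020). It was lower in 12 of the 12 possible pairs of a treated and an untreated mouse (exact p = 0.0571). Kcnq1ot1 was lower in 12 of 12 pairs as well, by log2 −0.43 ± 0.14 SE, but missed the threshold (edgeR adjusted p = 0.047), and Rmrp was higher in 11 of 12 pairs (log2 0.99 ± 0.36 SE, edgeR adjusted p = 0.084). Neat1 (log2 −0.44 ± 0.28 SE), Rpph1 (0.32 ± 0.27 SE) and Rn7sk (0.12 ± 0.25 SE) did not pass. Thus 1 of 6 was called, where 5.96% of 16538 genes were, a count of 1 from which no excess can be read.

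Markers of other cells moved with E+P in GFP+ luminal cells. The basal sums given above lay between 41.6 and 85.5 CPM untreated and between 117 and 132 CPM after E+P. The 6 fibroblast markers, all detected and led by Col3a1 or Pdgfra, summed to 108, 72.1, 48.7 and 35.1 CPM untreated and to 24.7, 23.3 and 21.9 CPM after E+P, and the luminal markers to means of 6469 and 5535 CPM. Their part in the change of Malat1 was not tested.

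The share of mitochondrial counts in GFP+ luminal cells was 8.35% ± 1.44 untreated and 14.7% ± 1.11 after E+P, and that of 4 ribosomal RNA genes (Gm42418, Gm26917, mt-Rnr1 and mt-Rnr2) 16.3% ± 2.17 and 23.8% ± 1.62. With mitochondrial genes left out of the totals, Malat1 took 2.52% ± 0.404 (SD, n = 4) and 1.35% ± 0.119 (SD, n = 3). With the 4 ribosomal RNA genes left out, an alternative chosen after seeing the data, it took 2.75% ± 0.384 and 1.51% ± 0.116. The call of Malat1 was lost without E+P mouse 1, 2 or 3 (edgeR adjusted p from 0.011 to 0.024), with log2 changes from −0.97 to −0.84, and Rmrp was called without untreated mouse 4 (log2 1.42, edgeR adjusted p = 0.0083). With library size alone the median of all genes shifted by −0.11 and 35.9% rather than 53.3% of calls were higher.

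Among partners in GFP+ luminal cells, edgeR called 8.33% of paraspeckle proteins, 4.55% of RNA polymerase III and small nuclear RNA transcription genes, 4.55% of other noncoding RNAs, 25.0% of the Kcnq1 domain and 15.0% of mitochondrial genes, beside 5.96% of all genes, and no enrichment was tested. RNA of Nono, a paraspeckle protein gene, rose after E+P (log2 0.51, 1 of 12), as did that of Polr3b (0.53, 1 of 22) and the snoRNA host Snhg5 (0.83, 1 of 22). In the Kcnq1 domain 2 of 8 genes fell. Kcnq1 itself went from 6.88 ± 2.52 to 1.21 ± 0.441 CPM (log2 −2.51), and Osbpl5 by log2 −1.08. Of 20 mitochondrial genes 3 rose, mt-Rnr2 (log2 1.02), mt-Rnr1 (0.87) and mt-Co1 (0.55). In edgeR 0 of 10 proteins of the 7SK particle and P-TEFb, 0 of 12 speckle proteins and 0 of 10 RNase P and RNase MRP proteins were called.

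In tdTomato+ luminal cells 0 of the 6 were called by edgeR, where 14.1% of 16538 genes were. At an unadjusted p under 0.05 there was 1, Neat1, and DESeq2 and limma-voom called 0. Neat1 had a log2 change of 0.75 ± 0.28 SE (edgeR adjusted p = 0.065) and was higher in 11 of 12 pairs (exact p = 0.114). Without untreated mouse 4 Neat1 was called (log2 1.07, edgeR adjusted p = 0.0063). Malat1 (log2 0.31 ± 0.15 SE, edgeR adjusted p = 0.14) was higher in 10 of 12 pairs, and Rmrp (0.66 ± 0.36 SE), Rpph1 (0.19 ± 0.27 SE), Rn7sk (0.17 ± 0.25 SE) and Kcnq1ot1 (0.02 ± 0.13 SE) did not pass. With library size alone the median of all genes shifted by −0.22, 25.2% rather than 54.2% of calls were higher, and Rpph1, Rn7sk and Kcnq1ot1 took negative signs. Among partners, to be read beside the 14.1% of all genes, Srsf1 (log2 0.70, 1 of 12 speckle proteins), Polr3b (0.56) and Bdp1 (0.54, both of 22) rose, and of 22 other noncoding RNAs 2 rose and 2 fell, with Rn7s1, an RNA of the signal recognition particle, at log2 2.82, Ftx at −0.93 and Firre at −0.81. Of 20 mitochondrial genes 3 rose, mt-Co1 (log2 0.42), mt-Tm (1.74) and mt-Atp6 (1.95), and 0 genes were called by edgeR in the other 4 lists.

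The response of Malat1 differed between the luminal fractions. Its interaction of reporter and E+P was log2 −1.20 ± 0.21 SE (edgeR adjusted p = 0.0043), the only 1 of the 6 called, where 2.27% of 16538 genes were. Neat1 had a similar estimate with a larger error (log2 −1.18 ± 0.40 SE, edgeR adjusted p = 0.097), and Kcnq1ot1 lay at −0.45 ± 0.19 SE (adjusted p = 0.18). In no list of partners was a gene called by edgeR for this interaction. The mean mitochondrial share went from 8.35% to 14.7% with E+P in GFP+ and from 10.1% to 12.1% in tdTomato+ luminal cells. That of the 4 ribosomal RNA genes went from 16.3% to 23.8% and from 17.7% to 21.5%. The part of these shares in the interaction was not tested. The call of Malat1 was lost with library size alone (edgeR adjusted p = 0.016, with a median shift of 0.12 and 55.0% rather than 34.4% of calls positive) and without 5 single mice, untreated 1 or 3 or any E+P mouse (0.015 to 0.051), while its log2 value lay between −1.37 and −1.08 with mice left out and between −1.21 and −1.08 under the other settings.

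In stroma edgeR called none of the 6 RNAs for E+P with the low-count filter. In GFP+ stroma edgeR called 0 of 6, with 0 at an unadjusted p under 0.05 and 0 by DESeq2 and by limma-voom, where 0.231% of 17783 genes were called. The log2 changes lay between −0.17 (Neat1) and 0.21 (Malat1), and the standard errors between 0.19 and 0.58. In tdTomato+ stroma edgeR also called 0 of 6, with 2 at an unadjusted p under 0.05 and 0 by DESeq2 and by limma-voom, where 0.124% of 17783 genes were called. Rmrp was 2.25-fold higher after E+P (log2 1.17 ± 0.35 SE, edgeR adjusted p = 0.12), in 12 of 12 pairs of mice (exact p = 0.0571), and Malat1 lower (−0.61 ± 0.21 SE, adjusted p = 0.17) in 10 of 12. Rpph1 had a log2 change of −0.93 ± 0.59 SE, which became −0.41 without the untreated library of mouse 1. The skeletal muscle sums given above ranged from 2409 to 12459 CPM in the untreated and from 6684 to 22130 CPM in the treated libraries of this fraction. Its fibroblast sums ran from 2289 to 6408 CPM untreated and from 1760 to 2265 CPM after E+P. Its basal sums ran from 4.24 to 17.1 CPM and from 19.3 to 35.5 CPM. Luminal sums had means of 221 ± 212 and 24.7 ± 21.3 CPM. The part of these markers in the values of the 6 RNAs was not tested. For the interaction of reporter and E+P in stroma edgeR called 0 of 6, with 2 at an unadjusted p under 0.05 and 0 by DESeq2 and limma-voom, where 0.045% of 17783 genes were called. The estimates for those 2 were log2 −1.22 ± 0.49 SE for Rmrp and 0.82 ± 0.30 SE for Malat1. Without the low-count filter, edgeR called Rmrp (log2 1.18, adjusted p = 1.9e-10) and Rpph1 (−0.91, adjusted p = 1.6e-05) for E+P in tdTomato+ stroma, beside 840 of 35652 genes. It called Rmrp (−1.24, adjusted p = 2.5e-05) for the interaction, beside 506 genes. Folds were near those of the filtered fit and errors smaller. The call of Rpph1 is at odds with the spread between mice, as it was lower in 7 of 12 pairs only (exact p = 0.514). In each of the 8 partner lists 0 genes were called by edgeR for the stromal E+P comparisons and their interaction.

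Across the 28 libraries, which share groups and mice, Malat1 and Neat1 had a Pearson r of 0.72 over log2 CPM, and the other 14 pairs of the 6 had r from −0.23 to 0.55, a description only. The genes with the most similar profile among 9146 others with a mean of at least 10 CPM were Spaca6 (r = 0.893), Gabbr1 (0.888) and Clock (0.879) for Malat1, and A930004J17Rik (0.878), Mprip (0.868) and Dnajb6 (0.865) for Neat1. Rmrp was nearest to other small nuclear or nucleolar RNAs, Snora73b (r = 0.831), the minor spliceosome RNA Rnu11 (0.801) and Gm26448, annotated as a snoRNA (0.797). Rn7sk was nearest to Gm22442, annotated as a small Cajal body RNA, at a low r of 0.636, then to Gm340 (0.590) and Prdx1 (0.532). Rpph1 was nearest to Gm23388 (r = 0.797), D8Ertd738e (0.769) and Gm12715 (0.734), and Kcnq1ot1 to Myo9b (r = 0.908), Pikfyve (0.902) and Sgpl1 (0.900).

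The sequences of Rmrp and Rpph1 are shown because these RNAs of related enzymes had unlike profiles over the groups while sharing a stretch of their catalytic core. They are GENCODE M21 transcripts of GRCm38, from the first base of the minus-strand gene, with Rmrp whole (271 bases) and Rpph1 to base 120 of 319. Capitals mark GAANGTC, the letters searched on the transcribed strand, in Rmrp from base 68 and in Rpph1 from base 61.
Rmrp: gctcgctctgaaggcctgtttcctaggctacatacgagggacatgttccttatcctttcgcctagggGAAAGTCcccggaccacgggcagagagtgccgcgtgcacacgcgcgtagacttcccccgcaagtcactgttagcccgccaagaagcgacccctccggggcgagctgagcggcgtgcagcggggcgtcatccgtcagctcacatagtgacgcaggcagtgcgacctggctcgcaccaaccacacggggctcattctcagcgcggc
Rpph1: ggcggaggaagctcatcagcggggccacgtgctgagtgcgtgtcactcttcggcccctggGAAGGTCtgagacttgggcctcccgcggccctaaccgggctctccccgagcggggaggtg
GAANGTC occurs in the first 300 bases of 6.55% of 131058 transcripts of at least that length, and a match of letters describes the sequence only.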

How the data were processed

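RNA of 28 sorted fractions from 7 mice was sequenced from 2 ng as stranded total RNA (paired reads of 75 bases). The deposited values are raw read counts per gene, which the authors made by aligning reads to GRCm38.p5 with STAR 2.5.2a, and neither the GENCODE release nor the strand column is stated. Gene names came from GENCODE M21, joined by Ensembl ID without version, and 50376 of the 50600 IDs were found there. Library totals had a median of 15329083.5 counts, and 12360 genes had none. Shares carry 95% Wilson intervals, which describe counting error only, as there are no UMIs.

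Genes were filtered with filterByExpr, scaled by TMM and tested with the robust quasi-likelihood F-test of edgeR 4.0.16 (R 4.3.3) at a Benjamini-Hochberg adjusted p under 0.01. Standard errors given with edgeR values are the absolute log2 fold change divided by the square root of the F statistic. A prior count of 2 was used only for log2 CPM, in the within-mouse differences, exact tests and correlations. The stroma and luminal libraries were fitted together for comparisons of lineage and apart for the others. Shares, marker sums and exact tests were computed in python 3.11.15 with numpy 2.4.6, scipy 1.17.1 and pandas 2.3.3, and sequence copies were sought with blastn 2.17.0+ (at least 95% identity over 75 bases). The code was tested on simulated data. Sample titles give the mouse, so GFP+ and tdTomato+ fractions and lineages come paired by animal. The main edgeR fits left the mouse out of the model. The pairing entered the within-mouse differences, the exact sign-flip tests and the fit with the mouse as a block. Deviations from group means correlated by 0.0496 between the stromal fractions of a mouse and −0.0083 between mice, and by 0.157 and −0.0258 in luminal cells. Alternatives were DESeq2 1.42.0 (test, and size factors in edgeR), limma 3.58.1 voom, library size alone, no low-count filter, the 6 RNAs left out of the totals, an adjusted p of 0.05, a block for the replicate, fits of the compared groups alone, each mouse left out, and mitochondrial genes left out of shares. Chosen after seeing the data were the removal of the untreated tdTomato+ stroma library of mouse 1 or 4 and of 4 ribosomal RNA genes from totals.

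The members and lists were chosen with earlier results of these data known. Named partners are at most the 3 called genes with the smallest p of each list, apart from items not reported here. No library was left out. Among cell type lists that the comparisons above do not print, haematopoietic markers reached at most 32.4 CPM, erythroid markers 34.2 CPM and adipocyte markers 10.1 CPM, all in tdTomato+ stroma.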

Additional observations from a re-analysis of the deposited data

Results flagged for a closer look

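Averaged over treatments, Malat1 differed between GFP+ and tdTomato+ fractions unequally in the lineages. The edgeR interaction of reporter and lineage was log2 0.62 (adjusted p = 0.0067), from −0.56 in stroma and −1.19 in luminal cells. The order turned between treatments except in untreated mouse 3: in untreated mice the log2 differences were −0.96, −1.09, −0.50 and −1.12 in stroma and −0.39, −0.21, −0.56 and −1.10 in luminal cells, and after E+P −0.10, −0.21 and −0.12 against −1.63, −1.69 and −1.92. The averaged value was singled out because a tested difference between groups passed the threshold.

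Malat1 also changed unequally with E+P in the luminal fractions. The edgeR interaction was log2 −1.20 (adjusted p = 0.0043), from −0.89 in GFP+ and 0.31 in tdTomato+ luminal cells, and it was singled out for the same reason. The cause of neither was tested. A search for a single sample far from its group found 0 among 24 groups of values, where chance alone gives about 1 in 20.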

How the results depend on the processing

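Of 924 alternative log2 values of the 6 RNAs, 845 kept their direction and side of the threshold, 25 lost a call, 22 gained one and 32 changed sign, none of these called in either fit. The cause was not tested. With library size alone, Rpph1 changed sign in stroma against luminal cells (−0.083), Rpph1 (−0.0248), Rn7sk (−0.0535) and Kcnq1ot1 (−0.20) for E+P in tdTomato+ luminal cells, and Rn7sk (0.0661) in the luminal interaction, and limma-voom gave Rpph1 0.0456 for E+P in GFP+ stroma. With the replicate number as a block, E+P gave Neat1 0.0681 and Rmrp 0.0339 in GFP+ stroma and Kcnq1ot1 0.0665 in tdTomato+ stroma.

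Numbers of the 6 called in the interaction of reporter and lineage were 3 at an adjusted p of 0.05 and 0 with DESeq2 size factors or no low-count filter. They were 2 with DESeq2 and 3 with the mouse as a block. Of 19569 genes, 8570 were called at 0.05, 6523 with DESeq2 size factors, 7661 with DESeq2 and 6552 with the block. Without the filter, 5989 of 38240 genes were called. GFP+ against tdTomato+ stroma gave 4 at 0.05 and 4 without the filter, in both adding Rmrp and Rpph1. Genes called there were 9519 of 17783 at 0.05 and 7971 of 35652 without the filter. No filter gave 2 for E+P in tdTomato+ stroma (Rmrp and Rpph1), where 840 of 35652 genes were called. It gave 1 in the stromal interaction (Rmrp), where 506 of 35652 genes were called. E+P in GFP+ luminal cells gave 2 at 0.05, E+P in tdTomato+ luminal cells 1 with the block (Neat1, log2 0.99), and the luminal interaction 0 with library size alone. Genes called in these 3 fits were 2475, 2177 and 369 of 16538. The block changed no other count of members beyond 1.5 times.

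Genes called for E+P in GFP+ stroma (41) became 126 at 0.05, 459 without the filter, 192 with DESeq2, 100 with limma-voom and 187 from these groups alone. In tdTomato+ stroma (22) they became 143, 840, 384 and 8 in the same order, 34 with library size alone, 45 with the block and 0 from these groups alone, where edgeR had 1715 at an unadjusted p under 0.05. The stromal interaction (8) gave 43, 506, about 1.1e2 and 4, and 13 with the block. E+P in GFP+ luminal cells (985) gave 2475 at 0.05, 2035 with DESeq2 and 560 from these groups alone, E+P in tdTomato+ luminal cells (2327) 4444 and 3558, and the luminal interaction (375) 1089 and 1014. With the block, 54.5% rather than 70.7% of calls for E+P in GFP+ stroma were higher. Untreated and treated mice share only a number, and libraries with the same number correlated by −0.0436 to 0.0129 on average.

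With single mice or libraries left out, the 6 gave 2 to 4 calls for stroma against luminal cells, 0 to 2 for reporter and lineage, 1 to 3 for GFP+ against tdTomato+ stroma, 1 to 2 in luminal cells, 0 to 2 for E+P in GFP+ and 0 to 1 in tdTomato+ luminal cells, 0 to 1 in the luminal interaction and 0 for E+P in stroma. Genes called ran from 11408 to 12483, 4985 to 6633, 6004 to 7602 and 3933 to 5336 in the first 4 of these, 169 to 962 and 1140 to 2143 for E+P in GFP+ and tdTomato+ luminal cells, 33 to 314 in their interaction, 16 to 46 and 1 to 85 for E+P in GFP+ and tdTomato+ stroma and 1 to 22 in their interaction. Signs changed for Rn7sk in GFP+ against tdTomato+ stroma (−0.0384 to 0.16) and Rmrp in luminal cells (−0.11 to 0.26). For E+P in GFP+ stroma they changed for Neat1 (−0.35 to 0.10), Rmrp (−0.32 to 0.28), Rpph1 (−0.37 to 0.22), Rn7sk (−0.18 to 0.0197) and Kcnq1ot1 (−0.0247 to 0.20), and in tdTomato+ stroma for Rn7sk (−0.016 to 0.24) and Kcnq1ot1 (−0.25 to 0.13). In the stromal interaction they changed for Neat1 (−0.00097 to 0.62) and Kcnq1ot1 (−0.0064 to 0.43), for Rn7sk in treated against untreated GFP+ luminal cells (−0.0886 to 0.30), in tdTomato+ luminal cells for Kcnq1ot1 (−0.15 to 0.13), and in the luminal interaction for Rpph1 (−0.0226 to 0.49) and Rn7sk (−0.21 to 0.18). Of 56 group means of shares, 42 stayed within 1 SD with mitochondrial genes left out and 25 with the 4 ribosomal RNA genes left out. Some E+P changes well above their standard errors were not called, such as Rmrp in tdTomato+ stroma (log2 1.17 ± 0.35 SE), and the cause was not tested. RNA quality of single libraries is not given.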
